A study of Mus musculus with 27 samples.

Results

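The joins described here linked a bait just upstream of Sμ, the donor switch region of the heavy chain locus, to the core of the Sα switch region and had 3 or 4 bases at the join that could come from either side. Of 193201 junctions in the series, 68485 were deletional joins to the Sα core (chr12:114496668-114502828, mm9, 6161 bp), and 17261 of those shared 3 or 4 bases. They were chosen by position, orientation and overlap alone: the prey aligned to the minus strand, as the bait does, and the bait and prey alignments overlapped on the read by 3 or 4 bases. Of the other deletional core joins, 14242 shared 2 bases and 4248 shared 5 or more.

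All libraries came from CH12F3, a mouse B-cell line able to switch class from IgM to IgA in culture, after 72 h of stimulation with IL-4, αCD40 and TGFβ. LAM-HTGTS, which amplifies linearly from a bait primer and sequences into whatever was joined there, was run from the Iμ region of the heavy chain locus, with AflII cutting used for blocking. Each of 9 clones gave 3 libraries, 27 in all: 1 WT parental line and 2 clones each of PAXX-/-, XLF-/-, XLF-/-PAXX-/- and Ligase4-/-. The PAXX-/- and XLF-/- clones and 1 Ligase4-/- clone were made from the parental line, the other Ligase4-/- clone came from outside, and both XLF-/-PAXX-/- clones were made from a single PAXX-/- clone, so these 2 clones are not independent of each other or of PAXX-/-. How the genes were inactivated is not given in the sources used here, and junction tables hold no measure of the deleted genes against which to check the labels. The series addresses whether PAXX and XLF can stand in for each other in end joining.

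In class switch recombination, activation-induced cytidine deaminase (AID) deaminates cytosines, with AGCT as a preferred sequence, and the resulting breaks in 2 switch regions are joined with loss of the DNA between them. Classical non-homologous end joining, in which DNA ligase 4 seals the ends and XLF and PAXX are accessory factors, gives many joins with no or short shared sequence. When it is impaired, B cells still switch at a reduced level by alternative end joining, whose joins more often use longer microhomology exposed by trimming of the ends.

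The bait sequence sets which bases can be shared. It is printed in read sense, the minus strand of chr12:114664785-114664911, with positions counted from 1 at its first aligned base. Capitals mark the only GCTGCTGCT stretch, at positions 73 to 81.

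Bait: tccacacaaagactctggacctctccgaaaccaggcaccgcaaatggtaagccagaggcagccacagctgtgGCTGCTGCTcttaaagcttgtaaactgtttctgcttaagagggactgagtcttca

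The recognition sequence of AflII, CTTAAG, lay at positions 106 to 111, and 2.28% of the joins with 3 or 4 shared bases had bait ends beyond it (0.115% to 4.01% by clone). The 6 joins found in the most libraries show what a member looks like, with the shared bases in capitals, bait to their left and prey to their right.

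CCAC join, bait end 114664847, prey 114498774: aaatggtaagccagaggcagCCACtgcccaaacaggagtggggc

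AGGC join, bait end 114664853, prey 114500280: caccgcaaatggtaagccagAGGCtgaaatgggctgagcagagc

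AGAG join, bait end 114664855, prey 114499960: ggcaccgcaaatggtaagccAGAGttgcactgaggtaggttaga

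AGGC join, bait end 114664876, prey 114499994: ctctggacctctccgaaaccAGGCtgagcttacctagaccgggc

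GGC join, bait end 114664853, prey 114498376: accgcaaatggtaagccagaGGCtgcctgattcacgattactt

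GCTG join, bait end 114664842, prey 114499992: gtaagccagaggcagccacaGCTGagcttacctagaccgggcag

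For the CCAC join, the unbroken bait and the unbroken Sα germline show where the read changes over, with the same 4 bases in capitals.

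CCAC, bait continued: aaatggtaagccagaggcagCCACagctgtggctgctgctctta

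CCAC, Sα germline: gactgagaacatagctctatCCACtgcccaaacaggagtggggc

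The CCAC join and the AGGC join with prey 114500280 were each found in 18 libraries and in all 9 clones. The GGC join was found in 16 libraries of 6 clones, with 5 copies in XLF-/-, 6 in XLF-/-PAXX-/-, 5 in Ligase4-/- and 0 in WT and PAXX-/-. Its absence there was not tested, since the joins were ranked by how many libraries held them. Among 5437 distinct combinations of bait end and prey position, 34.0% occurred in 1 library and 203 in 10 or more.

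The share of deletional core joins with 3 or 4 shared bases was about 2 times as high in clones without XLF or DNA ligase 4 as in WT and PAXX-/-. In WT the 3 libraries gave 14.8%, 16.1% and 15.9%. The PAXX-/- libraries gave 16.8%, 16.8% and 15.3% in clone 1 and 15.6%, 16.6% and 16.1% in clone 2. These 9 libraries overlapped one another and lay below every other library.

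XLF-/- clone 1 gave 29.3%, 30.5% and 31.6%, and clone 2 gave 31.6%, 30.9% and 33.7%. In XLF-/-PAXX-/- clone 1 gave 28.9%, 26.8% and 28.6%, and clone 2 gave 30.1%, 28.1% and 28.2%. Ligase4-/- clone 1 gave 29.5%, 29.0% and 29.7%, and clone 2 gave 30.5%, 30.1% and 30.4%. XLF-/- held the highest library and XLF-/-PAXX-/- the lowest of these 18, and the 3 genotypes overlapped.

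**Figure D1:**
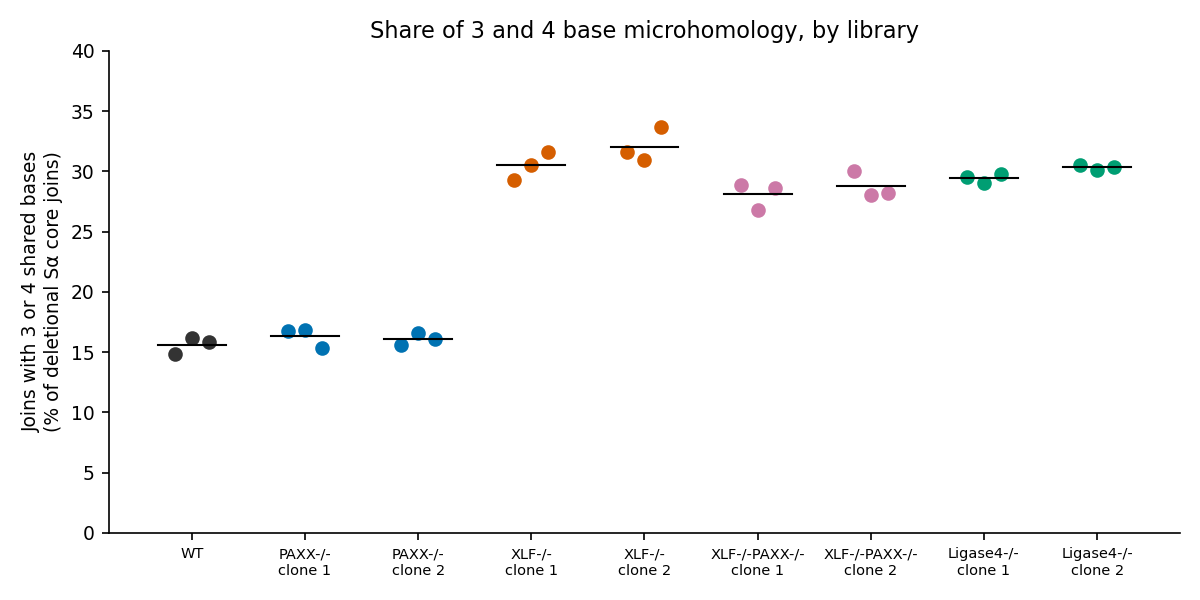
Percent of deletional Sα core joins with 3 or 4 shared bases, 1 point per library, grouped by clone. The WT and PAXX-/- libraries lie between 14.8% and 16.8%, and those of the other genotypes between 26.8% and 33.7%.

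Over the 9 clones, 99.5% of the variation in this share (as sums of squares) lay between genotypes, and 945 exact permutations of the clones gave p = 0.00106 and adjusted p = 0.0303. The adjusted p rose to 0.0691 with insertions left out of the denominator and to 0.0671 with joins limited to bait ends before the first substituted position, at 99.3% each. The 4 clones without XLF (29.9%) exceeded the 3 WT and PAXX-/- clones (16.0%) by 13.9 points, which is the largest of the 35 possible splits, so the exact p of 0.0286 is the smallest this design allows (adjusted p = 0.0645). By library, XLF-/- exceeded PAXX-/- by 15.1 points (95% interval 13.8 to 16.6, exact permutation adjusted p = 0.0303). Against WT the differences were 15.7 points (13.3 to 18.0) for XLF-/-, 12.8 (11.0 to 14.5) for XLF-/-PAXX-/- and 14.3 (13.3 to 15.3) for Ligase4-/-, each with exact permutation adjusted p = 0.0379. PAXX-/- exceeded WT by 0.565 points, with an interval of -0.563 to 1.74 (exact permutation p = 0.262).

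XLF-/-PAXX-/- was lower than XLF-/- by library, by 2.82 points (interval of the difference -4.49 to -1.25, exact permutation adjusted p = 0.0379). The difference was -0.376 points among bait ends before the substituted positions and -0.514 with insertions left out of the denominator, neither of which passed; insertions made up 24.2% ± 0.969 (SD, n = 6 libraries) of XLF-/-PAXX-/- core joins and 17.9% ± 1.23 of those of XLF-/-. XLF-/-PAXX-/- was also lower than Ligase4-/-, by 1.43 points (-2.50 to -0.351, exact permutation adjusted p = 0.0461). This difference turned to 0.728 points among bait ends before the substituted positions and was -0.287 without insertions in the denominator, and neither passed. That call was lost in 26 of the 36 fits that left out 1 library or 1 clone, where the difference lay between -1.89 and -0.976.

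Comparisons by library treat the 3 libraries of a clone as replicates, so their p-values are not evidence at the level of clones. Tests over clones treat the clones as independent, although both XLF-/-PAXX-/- clones were made from a single PAXX-/- clone. The PAXX-/- and XLF-/- libraries shared 2 sequencing runs, and XLF-/- was higher by 14.3 points within the first of these and by 15.5 within the second (exact permutation over libraries, p = 0.333 and p = 0.0286, the smallest each allows). WT, XLF-/-PAXX-/- and Ligase4-/- shared no run with another genotype, so for them the effect of the run cannot be told apart from that of genotype.

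The joins with 3 and with 4 bases rose together and were part of a wider change of join structure. Joins with 3 bases made up 9.46% ± 0.618 (SD, n = 3 libraries) of core joins in WT, 10.5% ± 0.663 (n = 6) in PAXX-/-, 20.1% ± 1.25 in XLF-/-, 18.2% ± 0.808 in XLF-/-PAXX-/- and 19.0% ± 0.265 in Ligase4-/-. Joins with 4 bases made up 6.16% ± 0.380, 5.72% ± 0.353, 11.2% ± 0.542, 10.3% ± 0.323 and 10.9% ± 0.572 in the same order. In the clones without XLF or ligase 4 the classes with 2 or more bases were higher than in WT and those with 0 or 1 base were lower. Joins with 2 bases were 24.9% of core joins in XLF-/- and 15.2% in WT, while direct joins were 6.45% and 18.5%.

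Among joins with at least 1 shared base, those with 3 or 4 made up 29.1% ± 1.06 in WT, 30.6% ± 1.73 in PAXX-/-, 41.3% ± 1.64 in XLF-/-, 40.8% ± 1.60 in XLF-/-PAXX-/- and 41.3% ± 1.37 in Ligase4-/-. XLF-/- exceeded PAXX-/- by 10.7 points on this measure (8.53 to 12.8, exact permutation adjusted p = 0.0303). The test over clones gave an adjusted p of 0.0648. The part of members with 4 rather than 3 bases was 39.5% ± 2.23 in WT and 35.4% to 36.4% in the means of the other genotypes, and no comparison of it passed after adjustment. XLF-/-PAXX-/- minus WT did pass in 2 alternatives, with opposite signs (exact permutation adjusted p = 0.0362 for each). It was -3.53 points with identical lines counted once and 6.11 among bait ends before the substituted positions.

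**Figure D2:**
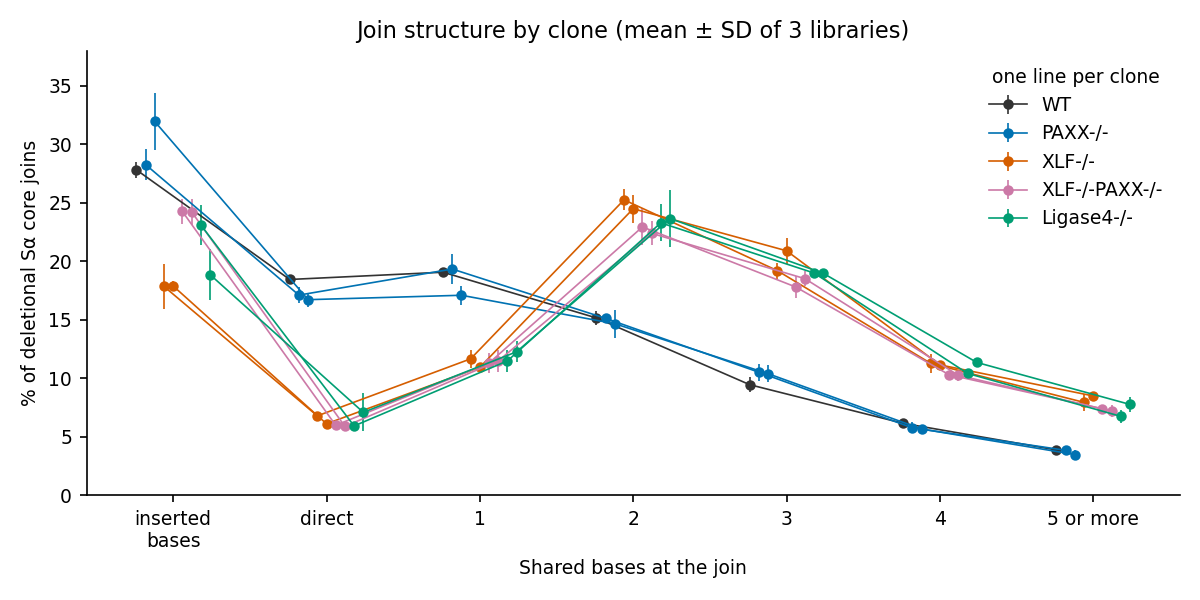
Percent of deletional Sα core joins by number of shared bases, from insertions and direct joins to 5 or more bases, 1 line per clone with mean ± SD of 3 libraries. WT and PAXX-/- lines run high at direct joins (18.5% and 16.9% by genotype) and low at 3 bases, and the other clones do the reverse.

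The shared bases themselves were rich in G and C, and the mixture differed between genotypes. Guanine made up 39.6% ± 0.502 of shared bases in WT, 38.6% ± 0.771 in PAXX-/-, 36.3% ± 0.367 in XLF-/-, 36.1% ± 0.721 in XLF-/-PAXX-/- and 35.8% ± 0.489 in Ligase4-/-. Adenine was 16.3% ± 1.77 in WT and 19.4% ± 1.05 in XLF-/-. G and C together fell from 64.1% in WT to 62.6% in XLF-/-, a difference by library of -1.44 points (-2.02 to -0.843, exact permutation adjusted p = 0.0379). The test of G and C over clones did not pass (exact permutation p = 0.0868, adjusted p = 0.156). The XLF-/- minus PAXX-/- difference was -1.24 points by library and did not pass (exact permutation adjusted p = 0.0505). It passed when libraries were permuted within the 2 shared runs (exact permutation adjusted p = 0.0133), though not in the first or second run alone (0.333 and 0.08). It also passed with identical lines counted once (0.0442), in the whole Sα window (0.0379) and for alignments without gaps (0.0379). Bait ends at positions 78 to 81, described below, were also left out, an alternative chosen after seeing the data. XLF-/- then differed from WT by -0.0228 points (exact permutation adjusted p = 0.981) and from PAXX-/- by 0.0940. These ends were picked for how they differ between genotypes, so their part in the GC difference was not tested.

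The triplets AGC and GCT were a smaller part of the microhomology in the clones without XLF or ligase 4. A member was counted here if its shared bases held AGC or GCT, the first or last 3 bases of AGCT. Joins that shared the whole AGCT did not follow this order: by library they made up 8.62% to 13.9% of members with 4 bases in WT, 7.87% to 12.3% in PAXX-/-, 7.92% to 12.6% in XLF-/-, 7.46% to 10.3% in XLF-/-PAXX-/- and 9.43% to 12.5% in Ligase4-/-, values that overlap. The AGC or GCT share is therefore not a measure of AGCT. In WT these were 41.4%, 50.0% and 38.5% of members by library. PAXX-/- clone 1 gave 42.0%, 37.0% and 36.8%, and clone 2 gave 42.4%, 39.3% and 39.7%. XLF-/- clone 1 gave 28.1%, 26.7% and 30.2%, and clone 2 gave 24.9%, 29.8% and 27.8%. XLF-/-PAXX-/- ranged from 23.0% to 25.8% over its 6 libraries and Ligase4-/- from 22.6% to 28.5%. No library of these 3 genotypes reached the lowest of WT and PAXX-/-.

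Between genotypes lay 98.3% of the variation of this share over clones, with an exact permutation p of 0.00317 and an adjusted p of 0.0370. By library, XLF-/- was lower than PAXX-/- (-11.6 points, -14.5 to -8.89, exact permutation adjusted p = 0.0303), and XLF-/-PAXX-/- was lower than XLF-/- (-3.71, -5.72 to -1.63, exact permutation adjusted p = 0.0379). Without bait ends at positions 78 to 81 of the bait, an alternative chosen after seeing the data, XLF-/- minus PAXX-/- was -0.849 points (exact permutation adjusted p = 0.715). Because these ends were picked for how they differ between genotypes, their part in the difference was not tested. The differences from WT were then -6.27 points for XLF-/-, which passed (exact permutation adjusted p = 0.0463), and -5.42 for PAXX-/-, which did not (exact permutation adjusted p = 0.0741). XLF-/-PAXX-/- and Ligase4-/- then differed from WT by -9.71 and -7.75 points. All 4 mutant genotypes thus lay below WT, which is a single clone, and PAXX-/- and XLF-/- by nearly as much. PAXX-/- clone 2 and both XLF-/-PAXX-/- clones carried bait substitutions within the AGCT that ends at position 69, given below. Of all members, 0.636% ended there in PAXX-/- clone 2, 3.21% in clone 1 and 4.25% in WT. At position 70 the values were 0.774%, 5.06% and 5.66%. The part of these substitutions in the differences of PAXX-/- and XLF-/-PAXX-/- from WT was not tested. The test over clones without bait ends at positions 78 to 81 gave 88.7% and an exact permutation adjusted p of 0.0741. Among bait ends before the substituted positions XLF-/-PAXX-/- and XLF-/- differed by -1.02 points (exact permutation adjusted p = 0.416).

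Counted per 100 core joins, the 2 kinds of member moved differently. Members without AGC or GCT numbered 8.84 ± 0.850 per 100 core joins in WT, 9.78 ± 0.530 in PAXX-/-, 22.5 ± 1.24 in XLF-/-, 21.6 ± 0.861 in XLF-/-PAXX-/- and 22.0 ± 1.05 in Ligase4-/-. Members with AGC or GCT numbered 6.78 ± 1.12 in WT, 6.39 ± 0.469 in PAXX-/-, 8.72 ± 0.722 in XLF-/-, 6.88 ± 0.399 in XLF-/-PAXX-/- and 7.85 ± 0.541 in Ligase4-/-. The first kind did not overlap between the WT and PAXX-/- clones and the rest, while the second did not separate those sets, with 5.63 to 9.54 over all 27 libraries. Within the second kind XLF-/- (7.87 to 9.54) did not overlap PAXX-/- (5.63 to 7.05), a difference that was not tested.

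**Figure D3:**
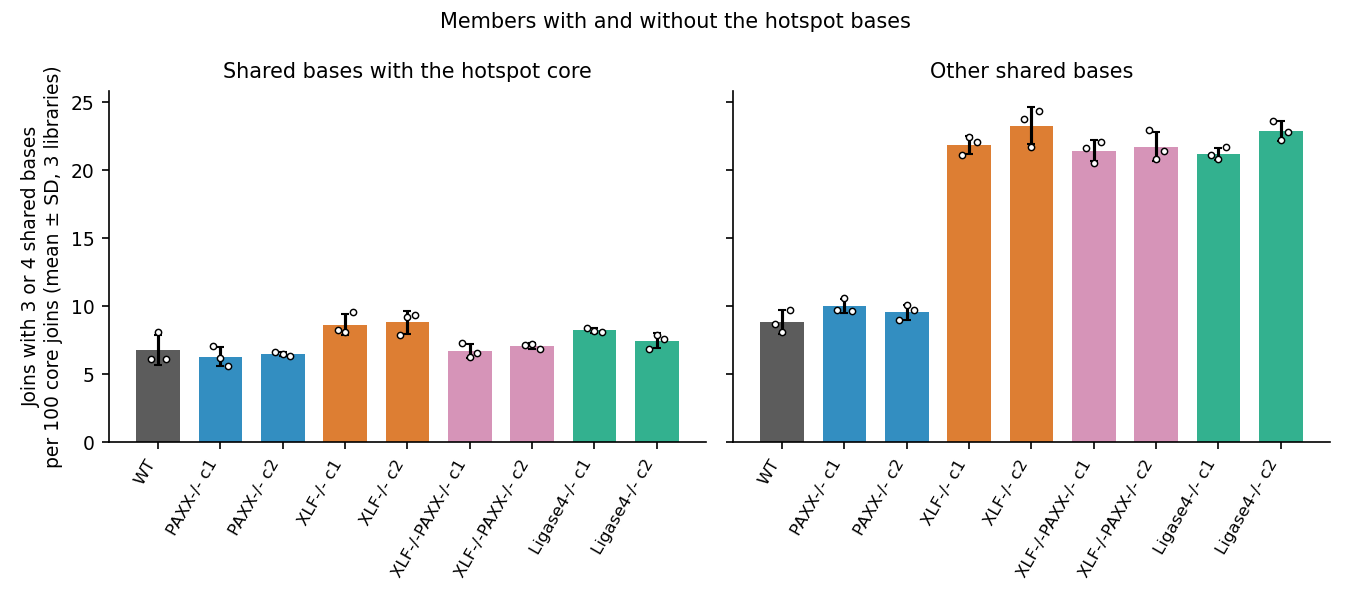
Members per 100 deletional core joins, with AGC or GCT among the shared bases and without, as mean ± SD of 3 libraries for each clone. Without those bases the clones of XLF-/-, XLF-/-PAXX-/- and Ligase4-/- lie near 22 and those of WT and PAXX-/- near 9 to 10, and with them the genotype means lie between 6.39 and 8.72.

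The shared sequences comprised 46 different triplets and 73 different quadruplets. The most frequent triplets were GCT with 1588 joins, CTG with 1456, AGC with 996, GGC with 888, TGG with 880, CAG with 719, GAG with 579 and CCA with 353. The most frequent quadruplets were GCTG with 1204 joins, AGGC with 762, AGCT with 644, ATGG with 257, CCAG with 203, GGCT with 186, CTGC with 160 and TGGT with 145. Of 36 motifs with at least 100 joins, 2 differed between genotypes over clones as a share of their length class, GCTG and TGG (exact permutation, adjusted p = 0.0381 for each), which is 5.56% of those tested. No motif passed with Holm adjustment, and 9 had an unadjusted exact permutation p under 0.05.

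GCTG made up 33.6%, 47.0% and 35.1% of quadruplets in the WT libraries. In PAXX-/- it made up 29.7% to 36.5% over 6 libraries. XLF-/- ranged from 13.8% to 20.3%, XLF-/-PAXX-/- from 11.8% to 16.0% and Ligase4-/- from 10.6% to 18.0%, all below WT and PAXX-/-. Per 100 core joins GCTG was 2.39 ± 0.606 in WT, 1.87 ± 0.280 in PAXX-/-, 1.91 ± 0.241 in XLF-/-, 1.39 ± 0.167 in XLF-/-PAXX-/- and 1.70 ± 0.297 in Ligase4-/-, values that overlap. TGG made up 6.48% ± 1.83 of triplets in WT, 7.31% ± 1.58 in PAXX-/-, 7.20% ± 1.23 in XLF-/-, 9.59% ± 1.09 in XLF-/-PAXX-/- and 7.51% ± 0.600 in Ligase4-/-. Neither call survived when identical lines were counted once or when bait ends at positions 78 to 81 were left out.

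The frequent motifs differed in how far their rates moved with the members as a whole. The ratio of the mean rate per 100 core joins in the 4 clones without XLF to that in the 3 WT and PAXX-/- clones was 0.809 for GCTG, 1.09 for GCT, 1.66 for AGCT, 4.35 for CCA and 4.57 for CCAG. Motifs entered by their number of joins over all clones, most of which came from clones without XLF or ligase 4, so a motif frequent only there could enter and no count over the motifs is given. CCAG numbered 0.0713 ± 0.0284 per 100 core joins in WT, 0.102 ± 0.0574 in PAXX-/-, 0.432 ± 0.106 in XLF-/-, 0.410 ± 0.0682 in XLF-/-PAXX-/- and 0.407 ± 0.166 in Ligase4-/-.

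Bait ends showed where GCTG came from. The members used 100 different bait ends, and the 10 most used, with clones weighted equally, held 40.3% of members. The 5 most used were position 70 (5.94% of members, last bait bases CAGCTG), position 59 (5.54%, AGAGGC), position 90 (4.60%, AAAGCT), position 47 (4.35%, AAATGG) and position 57 (3.61%, CCAGAG). The mean aligned bait length was 67.7 bases in WT, 68.7 in PAXX-/-, 67.2 in XLF-/-, 67.0 in XLF-/-PAXX-/- and 65.3 in Ligase4-/-, and no comparison of it passed after adjustment. Among bait ends before the substituted positions it did pass: XLF-/- was lower than PAXX-/- by 2.69 bases, a difference of -2.69 (exact permutation adjusted p = 0.0303). Against WT the differences there were -3.53 bases for XLF-/-, -3.83 for XLF-/-PAXX-/- and -4.52 for Ligase4-/- (exact permutation adjusted p = 0.0362 for each and for the test over clones). Without bait ends at positions 78 to 81 the difference between XLF-/- and PAXX-/- was 0.465 bases and did not pass.

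Ends in the repeated GCT at positions 78 to 81 (bait ends 114664834 to 114664831) were common in WT and PAXX-/- and rare elsewhere. They were singled out after seeing the values, so no test is given. In WT there were 2.60, 3.66 and 2.90 members with these ends per 100 core joins by library. PAXX-/- gave 3.01, 2.59 and 2.57 in clone 1 and 3.18, 3.56 and 3.44 in clone 2. The 6 XLF-/- libraries lay between 0.175 and 0.391, those of XLF-/-PAXX-/- between 0.0358 and 0.203 and those of Ligase4-/- between 0.0547 and 0.707. The highest of these 18 libraries was 0.707, in Ligase4-/- clone 2, and the lowest of the other 9 was 2.57.

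These ends held 19.5% ± 2.79 of members in WT and 18.9% ± 2.55 in PAXX-/-, against 0.890% ± 0.268 in XLF-/-, 0.389% ± 0.202 in XLF-/-PAXX-/- and 0.728% ± 0.814 in Ligase4-/-. The 169 WT members with these ends had 132 different prey positions and at most 4 joins at any of them, and the 494 of PAXX-/- had 273. Position 76 is also in the GCTGCTGCT stretch but is not among these ends. It was used by 0.592 ± 0.0765 members per 100 core joins in WT, 0.718 ± 0.172 in PAXX-/-, 0.459 ± 0.180 in XLF-/-, 0.544 ± 0.105 in XLF-/-PAXX-/- and 0.398 ± 0.132 in Ligase4-/-. At position 75, in the stretch as well, members numbered 0.129 per 100 core joins in WT and 0.276 and 0.453 in PAXX-/- clones 1 and 2. They numbered 0.687 and 0.612 in XLF-/- clones 1 and 2, 0.814 and 0.655 in those of XLF-/-PAXX-/- and 0.783 and 0.646 in those of Ligase4-/-. Joins that continued past the stretch were 19.6% of core joins in WT and 23.7% to 24.8% in the means of the other genotypes.

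Direct joins and insertions also ended at positions 78 to 81 less often in the clones without XLF or ligase 4, a description that was not tested. Of all deletional core joins, 10.6% ± 0.822 in WT and 10.2% ± 1.54 in PAXX-/- ended there, against 0.750% ± 0.113 in XLF-/-, 0.460% ± 0.313 in XLF-/-PAXX-/- and 0.689% ± 0.756 in Ligase4-/-. The Ligase4-/- mean was raised by 1 library: clone 2 gave 0.219%, 2.21% and 0.550%, and clone 1 gave 0.407%, 0.306% and 0.435%. Direct joins with these ends numbered 1.93 ± 0.282 per 100 core joins in WT and 0.0719 ± 0.0492 in XLF-/-, and insertions 3.31 ± 0.231 and 0.152 ± 0.109. Among deletional joins within 3 kb below the bait, 9.56% ± 1.75 ended there in WT and 0.624% ± 0.268 in XLF-/-. Among joins to other chromosomes the values were 2.75% ± 0.853 and 1.70% ± 0.372.

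Without these ends, the share of core joins with 3 or 4 shared bases was 14.1% ± 0.501 in WT, 14.6% ± 0.587 in PAXX-/-, 31.2% ± 1.44 in XLF-/-, 28.5% ± 1.00 in XLF-/-PAXX-/- and 29.9% ± 0.562 in Ligase4-/-. The bait reads of XLF-/- clone 1 carried G79A, inside the stretch, in 47.7% of reads reaching it, and those of XLF-/- clone 2 did not reach the 20% at which a substitution was listed. Both clones were low at these ends (0.268 ± 0.0640 and 0.287 ± 0.108 members per 100 core joins).

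GCTG at the stretch and GCTG at position 70 moved in opposite directions. At position 79, GCTG joins numbered 1.26 per 100 core joins in WT, 1.08 in PAXX-/-, 0.123 in XLF-/-, 0.0312 in XLF-/-PAXX-/- and 0.0774 in Ligase4-/-. At position 70, within CAGCTG, they numbered 0.647, 0.373, 1.49, 0.998 and 1.32 in the same order. Both ends were lower in PAXX-/- than in WT, and lower in XLF-/-PAXX-/- than in XLF-/-. At position 70 the PAXX-/- clones differed. Members of any motif there numbered 0.827 and 0.124 per 100 core joins in clones 1 and 2, against 0.890 in WT. The GCTG that ends at position 70 starts at position 67. PAXX-/- clone 2 and both XLF-/-PAXX-/- clones carried bait substitutions within it, given below. At position 76, also in the GCTGCTGCT stretch, GCTG joins numbered 0.467, 0.367, 0.337, 0.362 and 0.309 in that order.

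**Figure D4:**
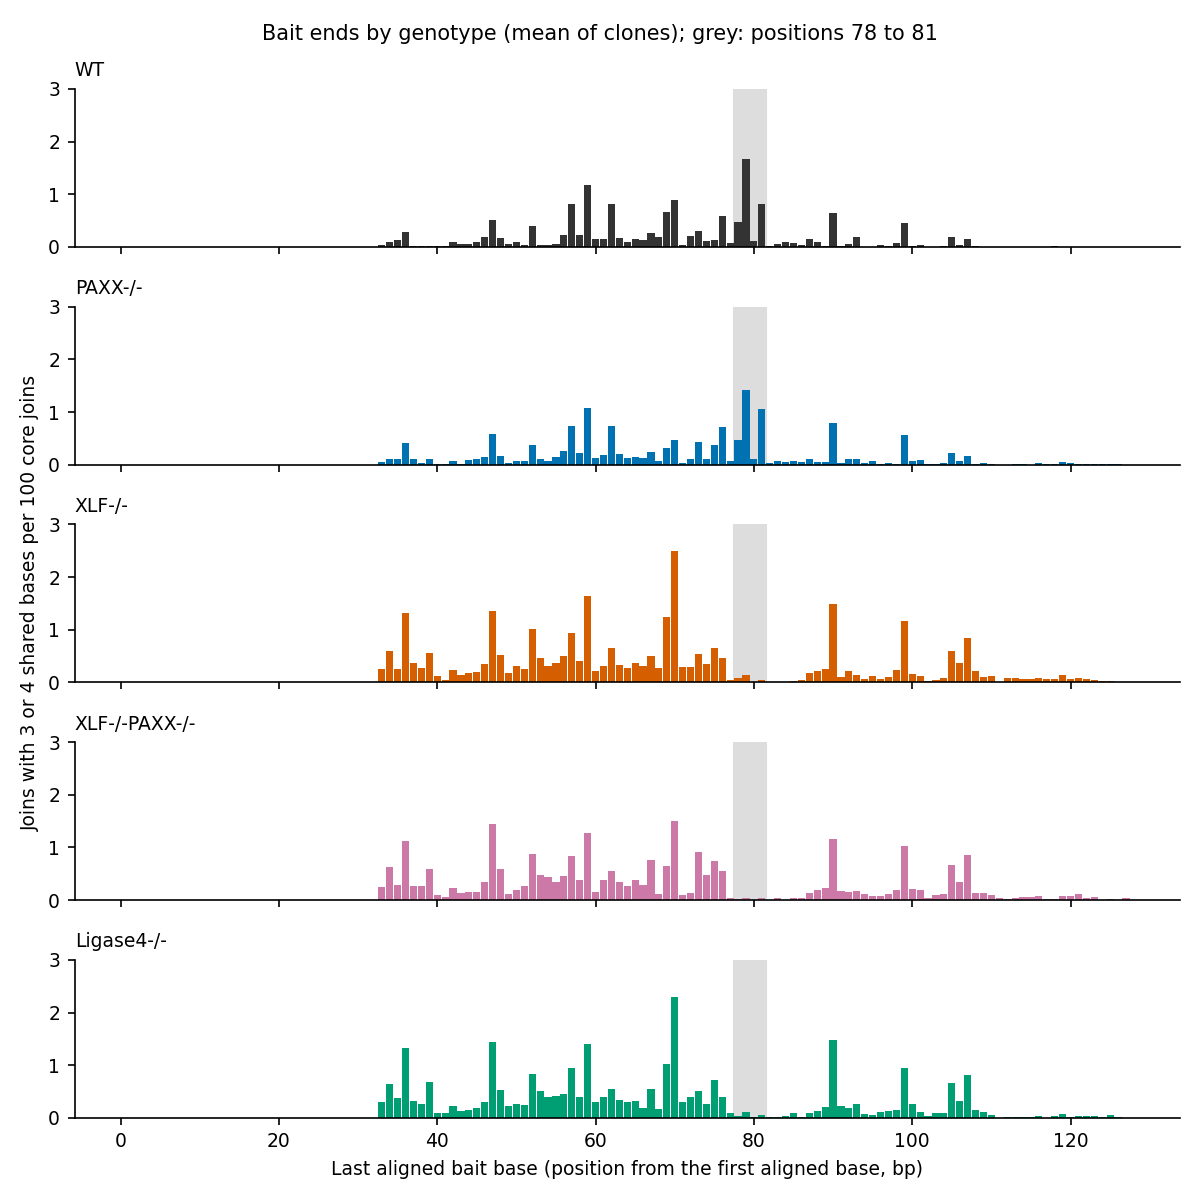
Members per 100 deletional core joins by the last aligned bait position, 1 panel per genotype (mean of clones), with positions 78 to 81 shaded grey. The shaded ends carry 3.06 members per 100 core joins in PAXX-/- and 0.277 in XLF-/-, while position 70 carries 0.475 and 2.50. At position 70 PAXX-/- clones 1 and 2 carry 0.827 and 0.124, and the bait of clone 2 is substituted at positions 67 and 68.

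At position 70 the 3 WT libraries gave 0.676, 1.20 and 0.791 members per 100 core joins. PAXX-/- clone 1 gave 1.03, 0.756 and 0.695, and clone 2 gave 0.125, 0.0867 and 0.160, so the 2 clones of this genotype did not overlap. XLF-/- libraries lay between 2.22 and 2.65, XLF-/-PAXX-/- between 1.21 and 1.68 and Ligase4-/- between 2.11 and 2.73. Bait positions 67 and 68 were substituted in some clones. They lie within the AGCT at positions 66 to 69 and within the GCTG that ends at position 70. G67A was found in 56.9% and C68T in 40.9% of the bait reads of PAXX-/- clone 2. C68T was found in 45.8% and 51.5% of those of XLF-/-PAXX-/- clones 1 and 2. The part of these substitutions in the lower values was not tested.

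Prey ends of the members lay farther from the bait in the clones without XLF or ligase 4. Distance was counted from the bait-proximal edge of the core. The library means were 2792, 2474 and 2784 bp in WT and between 2640 and 2827 bp in PAXX-/-. They were between 3307 and 3499 bp in XLF-/-, between 3364 and 3507 bp in XLF-/-PAXX-/- and between 3317 and 3636 bp in Ligase4-/-. The 2 sets of libraries did not overlap.

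XLF-/- exceeded PAXX-/- by 664 bp (580 to 748, exact permutation adjusted p = 0.0303). Against WT the differences were 701 bp (548 to 891) for XLF-/-, 731 (579 to 906) for XLF-/-PAXX-/- and 806 (563 to 1049) for Ligase4-/-, each with exact permutation adjusted p = 0.0379. The test over clones did not pass, with 98.1% of the variation between genotypes, an exact permutation p of 0.0317 and an adjusted p of 0.0673. XLF-/-PAXX-/- and XLF-/- differed by 30.4 bp, with an interval of -46.6 to 106 (exact permutation p = 0.396).

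With the core cut into 3 parts of 2054 bp, the bait-proximal part held 34.5% ± 4.24 of members in WT, 36.8% ± 2.19 in PAXX-/-, 18.6% ± 2.06 in XLF-/-, 18.7% ± 1.67 in XLF-/-PAXX-/- and 14.4% ± 2.41 in Ligase4-/-. The distal part held 13.9% ± 3.74 of members in WT, 16.6% ± 2.14 in PAXX-/-, 30.1% ± 1.29 in XLF-/-, 30.9% ± 2.10 in XLF-/-PAXX-/- and 32.6% ± 3.18 in Ligase4-/-. All core joins showed a shift of like size: the distal part held 15.0% of them in WT, 17.7% in PAXX-/-, 31.2% in XLF-/-, 31.5% in XLF-/-PAXX-/- and 31.7% in Ligase4-/-. Direct joins lay at a mean of 2787 ± 92.3 bp in WT and 3539 ± 134 bp in XLF-/-.

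**Figure D5:**
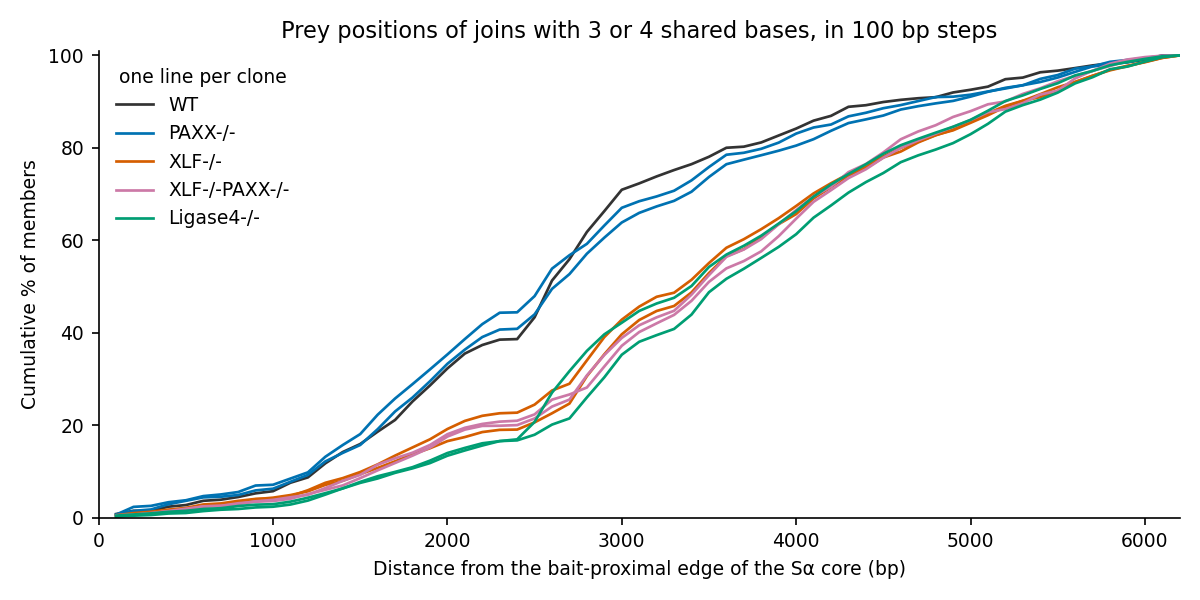
Cumulative percent of members by distance of the prey end from the bait-proximal edge of the Sα core, in 100 bp steps, 1 line per clone. The lines of WT and PAXX-/- rise first, with medians of 2586 and 2584 bp, and those of XLF-/-, XLF-/-PAXX-/- and Ligase4-/- later, with medians of 3387 to 3459 bp.

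The higher share of 3 and 4 base joins was present in both the bait-proximal and the distal part of the core. In the bait-proximal part it was 18.5% ± 1.95 in WT, 18.6% ± 1.20 in PAXX-/-, 36.1% ± 1.54 in XLF-/-, 34.2% ± 3.58 in XLF-/-PAXX-/- and 33.2% ± 3.32 in Ligase4-/-. In the distal part it was 14.2% ± 2.69, 15.3% ± 2.27, 30.2% ± 1.31, 28.0% ± 2.86 and 30.9% ± 1.63 in the same order.

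The sequence of the core changes along its length, and the shared bases change with it. GCTG occurred 55.5 times per kb in the bait-proximal part, 40.4 in the middle and 7.79 in the distal part, and CAG 3.41, 13.6 and 27.8 times (read sense only, overlapping matches counted). Members with AGC or GCT were 54.6% ± 8.16 of those in the bait-proximal part in WT and 39.5% ± 4.87 in XLF-/-, and 42.1% ± 5.37 and 30.2% ± 1.74 in the middle part. In the distal part the values were 17.2% ± 5.29 and 16.9% ± 2.43. The lower share of these bases in XLF-/- was therefore present in the proximal and middle parts taken alone, and the part of prey position in the whole difference was not tested.

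Among 100 bp windows of the core, 5 held the most members. Counted with clones weighted equally they were chr12:114500029-114500128 (4.38% of members), chr12:114500229-114500328 (4.30%), chr12:114499929-114500028 (4.29%), chr12:114499829-114499928 (3.93%) and chr12:114499329-114499428 (3.63%). The second and the fifth, which differ most in their use, are printed in read sense with GCTG in capitals.

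chr12:114500229-114500328, minus strand: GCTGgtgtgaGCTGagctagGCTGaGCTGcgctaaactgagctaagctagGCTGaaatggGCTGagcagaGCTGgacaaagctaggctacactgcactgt

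chr12:114499329-114499428, minus strand: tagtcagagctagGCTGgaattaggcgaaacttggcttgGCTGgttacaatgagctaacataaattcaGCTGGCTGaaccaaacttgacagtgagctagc

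The second window, 2500 to 2599 bp into the core, held 7.94% ± 0.504 of members in WT, 5.73% ± 1.05 in PAXX-/-, 2.51% ± 0.723 in XLF-/-, 2.88% ± 0.503 in XLF-/-PAXX-/- and 4.27% ± 2.38 in Ligase4-/-. The 2 Ligase4-/- clones differed, with 6.34% in clone 1 and 2.19% in clone 2. All core joins followed the same order in this window, from 6.48% in WT to 2.12% in XLF-/-. The window at chr12:114499329-114499428 held 1.60% ± 0.653 of members in WT, 3.03% ± 0.473 in PAXX-/-, 3.90% ± 0.806 in XLF-/-, 4.15% ± 0.467 in XLF-/-PAXX-/- and 4.47% ± 0.573 in Ligase4-/-. The most used window differed between clones of a genotype: it held 1.51% of members in XLF-/-PAXX-/- clone 1 and 5.23% in clone 2, and 3.29% and 7.17% of all their core joins.

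Outside the deletional core the share of joins with 3 or 4 shared bases differed by destination. For inversional joins to the core it was 20.3% ± 1.84 in WT, 20.8% ± 5.09 in PAXX-/-, 34.9% ± 3.51 in XLF-/-, 32.5% ± 3.70 in XLF-/-PAXX-/- and 36.4% ± 2.40 in Ligase4-/-. For deletional joins within 3 kb below the bait it was 14.1% ± 1.34, 13.7% ± 1.57, 29.3% ± 1.64, 27.0% ± 1.68 and 26.7% ± 1.89. For joins to other chromosomes it was 14.2% ± 0.778, 12.7% ± 1.38, 17.2% ± 1.99, 18.4% ± 2.66 and 16.3% ± 4.72. The difference between destinations was not tested.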

How the data were processed

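LAM-HTGTS was run on 9 CH12F3 clones with 3 libraries each. Bowtie2 and mm9 are the tool and build named in the submitters' processing notes, and how the authors filtered junctions is not given in the sources used here. Each deposited table pools a clone's libraries and has, per junction, alignment positions and the read sequence. A library name told the libraries apart without giving a replicate number, so they were numbered by name only.

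Overlap was the count of bases on the read covered by both alignments, bait and prey. The shared bases were read from each read, and the Sα sequence was built from the 20 genomic bases deposited around each junction; shared bases matched both sides exactly in 99.8% of members. Clones, as the mean of their libraries, were compared by exact permutation of the sum of squares between genotypes, or of mean differences. Pairs of genotypes were compared by exact two-sided permutation over libraries, with 95% intervals from inverting it. Benjamini-Hochberg adjustment covered 70 tests (7 measures, 10 contrasts), of which 23 passed 0.05, and separately 36 motifs. The labels name 3 biological replicates per clone; libraries of a clone share its origin, and nothing says that cultures were stimulated separately.

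Libraries held 1357 to 4828 core joins and 250 to 1436 members. PCR reads without molecular identifiers are not independent molecules, and 0.115% to 1.16% of a clone's members repeated the position and bait end of another in its library. Read names showed 8 sequencing runs. A substitution was listed at 20% of bait reads. The members, motif rules and tests were chosen with earlier results of these data known. Named motifs were the 8 most frequent of each length and any called, named joins the 6 held by the most libraries, and named windows and bait ends the 5 most used. Alternatives counted repeated lines once, widened the core to the Sα window, left out insertions, alignment gaps, unaligned gaps over 20 bases, inexact overlaps or baits past the first substituted position, pooled a clone's junctions, and left out each library or clone. Leaving out bait ends at positions 78 to 81 of the GCTGCTGCT stretch was added after seeing the data, and ends at its earlier positions were kept. The tests were tried on simulated data. Python 3.11.15, numpy 2.4.6, pandas 2.3.3, scipy 1.17.1 and matplotlib 3.10.9 were used. Gene annotation of mm9 was not used here.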

Additional observations from a re-analysis of the deposited data

Results flagged for a closer look

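Of 28 groups of libraries checked for a value far from the rest, 1 held one, where chance gives about 1 in 20. The mean aligned bait length of members was 64.2 bases in XLF-/-PAXX-/- clone 1 library 2, against 66.9 to 68.4 in the other libraries of this genotype.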

How the results depend on the processing

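Depth limits the rarer motifs and bait ends most, since libraries held 250 to 1436 members, and WT rests on a single clone. No paired analysis was possible because library names carry no replicate number, so the planned replicate block was not run. Where a library or clone was left out, fewer permutations raise the smallest p that a test allows; the cause of the other changes was not tested. Apart from leaving out libraries or clones, alternatives gave 27 reversed directions, 2 moved counts or values, 11 calls gained, 19 lost and 429 values on the same side.

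The share of core joins with 3 or 4 shared bases kept its direction for XLF-/- against WT and XLF-/- against PAXX-/-. Between XLF-/-PAXX-/- and Ligase4-/- its difference was -1.27 points with identical lines counted once, -1.39 for alignments without gaps and -0.287 without insertions in the denominator. It was -1.40 without bait ends at positions 78 to 81 (chosen after seeing the data) and 0.728 with bait ends before the substituted positions. Genotypes accounted for 99.3% of its variation without insertions and 99.3% with bait ends before the substituted positions. The test over clones lost its call in both (exact permutation adjusted p = 0.0691 and 0.0671). XLF-/-PAXX-/- minus XLF-/- was -0.514 points without insertions and -0.376 with bait ends before the substituted positions.

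With bait ends before the substituted positions, the share among microhomology joins gave 0.541 points for XLF-/-PAXX-/- minus XLF-/- and 0.205 for XLF-/-PAXX-/- minus Ligase4-/-. The part with 4 bases gave 4.67 points for XLF status and 0.622 for PAXX status. Against WT it was 0.719 for PAXX-/-, 4.19 for XLF-/-, 6.11 for XLF-/-PAXX-/- and 4.96 for Ligase4-/-, and XLF-/-PAXX-/- minus Ligase4-/- was 1.16. Of these, only the difference of XLF-/-PAXX-/- from WT passed (exact permutation adjusted p = 0.0362). GC content against WT was 0.870 points for PAXX-/-, 0.596 for XLF-/-, 0.476 for XLF-/-PAXX-/- and 1.15 for Ligase4-/-. The AGC or GCT share of XLF-/-PAXX-/- minus Ligase4-/- was 0.653 points. For bait length, genotypes accounted for 98.4% of variation, and PAXX-/- minus WT was -0.848 bases.

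Without bait ends at positions 78 to 81, the part with 4 bases gave 1.12 points for XLF status. GC content gave -0.111 points for PAXX status, 0.0762 for Ligase4-/- minus WT and 0.0940 for XLF-/- minus PAXX-/-. Genotypes accounted for 88.7% of the variation of the AGC or GCT share. Bait length gave 0.857 bases for XLF status, 1.85 for XLF-/- and 1.71 for XLF-/-PAXX-/- against WT, and 0.465 for XLF-/- minus PAXX-/-.

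GC content gave 0.0478 points for PAXX-/- minus WT in the whole Sα window and -0.0146 for PAXX status with a clone's junctions pooled. Within the first shared run, XLF-/- minus PAXX-/- was -2.84 points for the part with 4 bases. The count of called motifs was 5 in the whole Sα window, among them GCTG and not TGG. It was 0 with identical lines counted once, bait ends before the substituted positions, bait ends outside positions 78 to 81, at least 30 junctions per motif, or Holm adjustment.

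Leaving out each library or clone reversed none of the 23 called results, each of which lost its call in at least 1 such fit, and reversed 19 that were not called. The share with 3 or 4 bases gave 99.2% to 99.8% for genotypes (lost in 7 of 36 fits, each without a clone), 14.9 to 16.4 points for XLF-/- minus WT, 12.4 to 13.2 for XLF-/-PAXX-/- minus WT, 13.8 to 14.7 for Ligase4-/- minus WT, 14.3 to 15.9 for XLF-/- minus PAXX-/-, -3.61 to -2.04 for XLF-/-PAXX-/- minus XLF-/- and -1.89 to -0.976 for XLF-/-PAXX-/- minus Ligase4-/-. Among microhomology joins it gave -5.64 to 0.917 for PAXX status, -1.43 to 0.299 for XLF-/-PAXX-/- minus XLF-/- and -0.935 to 0.0651 for XLF-/-PAXX-/- minus Ligase4-/-.

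For the part with 4 bases the ranges were -1.42 to 0.630 points for XLF status, -0.589 to 1.58 for XLF-/- minus PAXX-/-, -0.821 to 1.35 for XLF-/-PAXX-/- minus XLF-/- and -1.30 to 0.743 for XLF-/-PAXX-/- minus Ligase4-/-. For GC content they were -0.291 to 0.541 for PAXX status, -0.557 to 0.166 for PAXX-/- minus WT, -0.434 to 0.117 for XLF-/-PAXX-/- minus XLF-/- and -0.521 to 0.0294 for XLF-/-PAXX-/- minus Ligase4-/-. For the AGC or GCT share they were 97.2% to 99.5% for genotypes and -4.04 to 3.96 points for PAXX status.

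Prey distance ranged over 97.2% to 99.2% for genotypes, -317 to 51.9 bp for PAXX status, -67.9 to 91.0 for PAXX-/- minus WT, -6.08 to 67.0 for XLF-/-PAXX-/- minus XLF-/- and -156 to 5.94 for XLF-/-PAXX-/- minus Ligase4-/-. Bait length ranged over -0.104 to 0.970 bases for PAXX status, -1.20 to 0.217 for XLF-/- minus WT and -0.897 to 0.517 for XLF-/-PAXX-/- minus XLF-/-. The count of called motifs ranged from 0 to 2 and was 0 in 26 of these fits.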
